A study of Mus musculus with 24 samples.

Results

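The genes described here are 34 mouse genes of the folding arm of the unfolded protein response in the endoplasmic reticulum (ER), measured in small-intestinal organoids treated with a peptide against the Wnt receptor Frizzled 7. They were listed by symbol and matched to the gene identifiers of the count files. All 34 were found among the 36528 gene identifiers, and all 34 were among the 15429 genes with enough counts to be tested. They comprise 6 folding factors, 4 J-domain cochaperones, 2 lectin chaperones, 4 protein disulfide isomerases, 8 genes of ER-associated degradation (ERAD), 5 genes of protein entry, processing and export, and 5 stress sensors and transcription factors.

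Proteins that enter the ER are folded by the chaperone BiP (encoded by Hspa5) and its partners, and those that fail to fold are returned to the cytosol and degraded. When unfolded proteins accumulate, the membrane sensors IRE1 and ATF6 raise the transcription of chaperone and degradation genes, IRE1 by splicing the Xbp1 mRNA into the form that encodes the active factor and ATF6 by releasing its own cytosolic part. The sensor PERK slows translation and works through the transcription factor ATF4, whose targets serve amino acid supply and are a separate arm. In the intestine this machinery is heavily used by the secretory Paneth and goblet cells, and Xbp1 and the mucosal IRE1 gene Ern2 are known for their roles there.

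Polyadenylated RNA was sequenced from primary mouse organoids of the small intestine in 6 groups of 4 libraries. The groups received DMSO (the solvent control), dFz7-21 (a peptide that blocks Frizzled 7) or Fz7-21S (a related peptide that serves as the control) for 6 h or 24 h. No source used here gives the doses or the mouse strain and age. The labels do not say that the 4 libraries of a group came from separate cultures or animals, so the p-values measure the spread between these libraries, which may be technical. The libraries held 20446610 to 33102993 counts, and epithelial markers were present in all 6 groups.

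Some libraries stood apart. Fz7-21S 24h replicate 4 deviated most from the rest of its group, with a median absolute log2 deviation of 0.203 over the 34 genes, against at most 0.136 in each of the other 23 libraries. It and DMSO 24h replicate 2 had the fewest genes with a read, 17787 and 16897. Mesenchymal transcripts were present in 3 libraries. Col1a1, a collagen gene, stood at 395 CPM (counts scaled to the size of the library) in dFz7-21 24h replicate 3, at 80.6 CPM in replicate 1 of DMSO 6h and at 10.2 CPM in replicate 2 of DMSO 6h, against at most 0.657 CPM in the other 21 libraries, while the fibroblast genes Dcn and Lum were at 0 in all 24 libraries. In bulk RNA, fewer cells of a type and less RNA per cell cannot be told apart.

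At the level of the whole set, the 24 h dFz7-21 libraries held the most RNA from these 34 genes. Their summed share of the library (size scaled by TMM) was 0.986% to 1.02% with dFz7-21 at 24 h, against 0.834% to 0.874% with DMSO and 0.854% to 0.955% with Fz7-21S at 24 h, where the highest value was that of replicate 4. At 6 h the 3 treatments spanned 0.873% to 0.916% together.

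After 24 h, 16 of the 34 genes were higher with dFz7-21 than with DMSO and 1 was lower (edgeR quasi-likelihood test, Benjamini-Hochberg adjusted p below 0.05 over all genes tested). Of all 15429 genes tested, 18.2% were higher and 17.7% lower in the same comparison (35.9% in either direction). The median log2 fold change of the 34 genes was 0.18, against -0.01 over all genes tested. The changes were small: the largest were those of the export gene Sec24d (0.67 ± 0.10, log2 fold change ± SE), the disulfide isomerase gene P4hb (0.48 ± 0.05) and Xbp1 (0.43 ± 0.05). For 20 of the 34 genes every dFz7-21 library lay above every DMSO library, and for 1 gene below, against 19.4% and 19.0% of all genes tested.

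Against the peptide Fz7-21S at 24 h, 16 of the 34 genes were again higher with dFz7-21 and 0 lower, beside 16.5% and 17.2% of all genes tested. The median log2 fold change was 0.13, and for 14 genes every dFz7-21 library lay above every Fz7-21S library (0 below), beside 13.4% and 12.5% of all genes tested. Both comparisons share the dFz7-21 libraries. Higher in both were 14 genes: Hspa5, Hyou1, Dnajb11, Dnajc3, Canx, P4hb, Edem1, Syvn1, Derl1, Os9, Sec61a1, Sec24d, Xbp1 and Eif2ak3. The share of all genes tested that were higher in both was not counted, so this count has no background beside it. Calr and Herpud1 passed against DMSO but not against Fz7-21S, and Sel1l and Atf6 against Fz7-21S but not against DMSO. When only the 8 libraries of the 2 groups entered the fit, the count against Fz7-21S was 8 (Atf6, Derl1, Dnajb11, Eif2ak3, Hspa5, Hyou1, Sec61a1 and Sel1l no longer passed), and it was 22 without Fz7-21S 24h replicate 4.

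**Figure D1:**
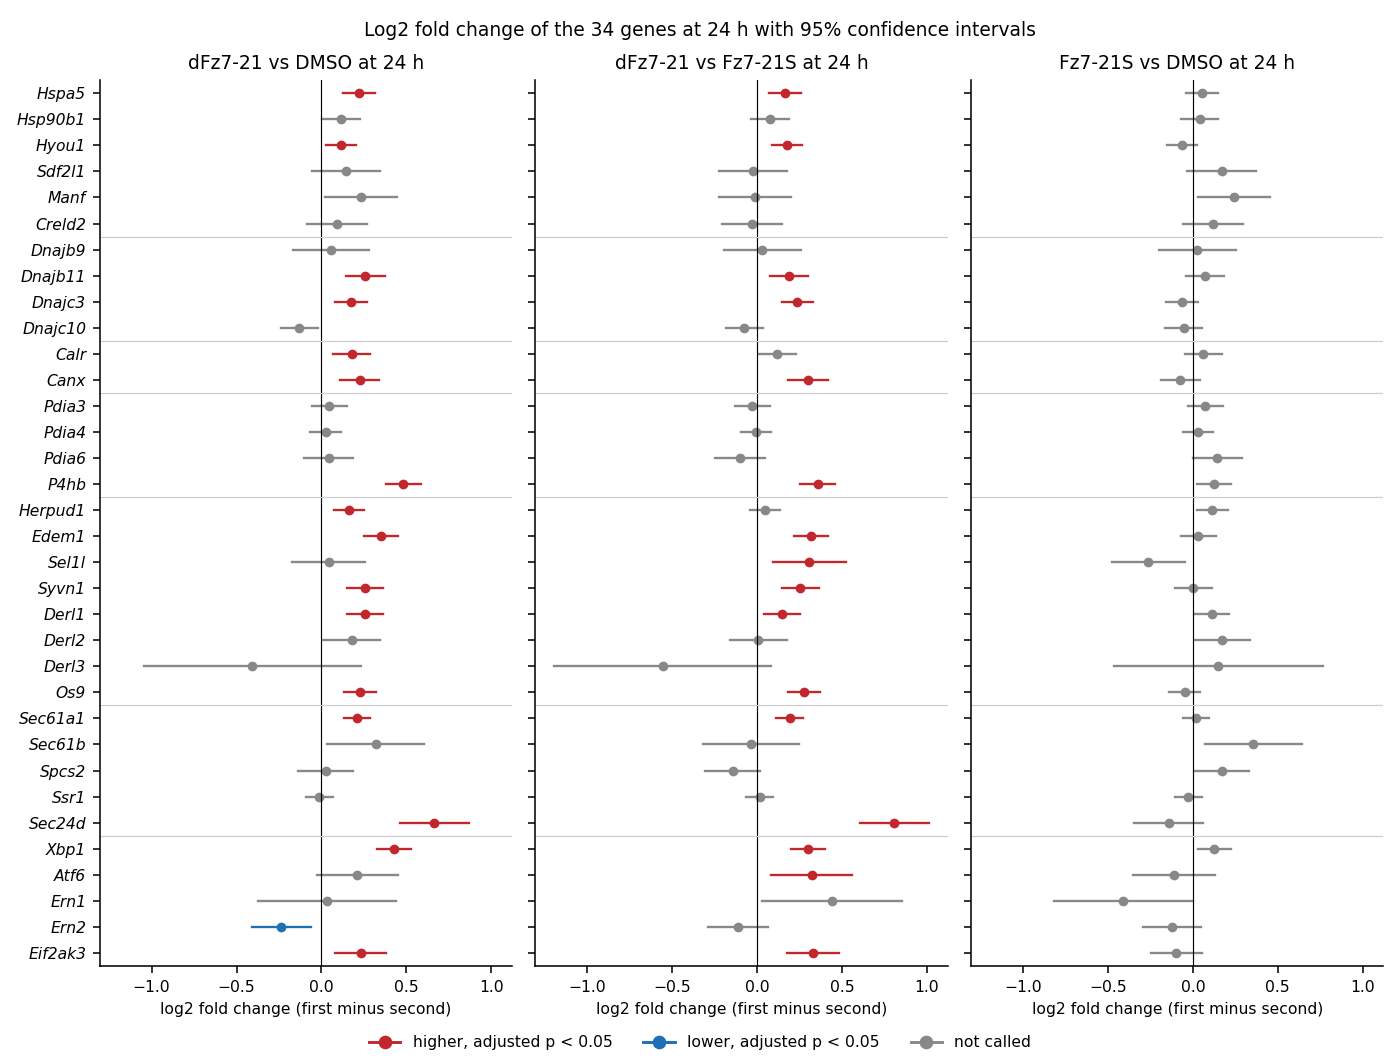
Log2 fold change (x axis) of each of the 34 genes (y axis, in blocks by role in the order of the text) in the 3 comparisons at 24 h, with 95% confidence intervals from edgeR. The red points of the first 2 panels are the 16 genes higher with dFz7-21 in each, the blue point is Ern2, and the third panel, Fz7-21S against DMSO, has no called gene.

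ATF6 and XBP1 act through the ER stress response element (ERSE), searched as CCAAT and CCACG with 9 bases of any kind between them, and through the shorter ERSE-II, searched as ATTGG and CCACG with 1 base between them. RefSeq promoter windows (GRCm38.p6), from 250 bases before to 50 after the annotated start, were at hand for 28 of the 34 genes, and both strands were searched. The ERSE occurred in the windows of 9 of the 28 genes (32.1%), against 0.137% of all 27025 genes with a window. ERSE-II occurred in 2 (7.14%, against 0.0444%). The set was listed as an XBP1 and ATF6 response, which acts through these elements, so a high share is no independent finding. The shorter pieces of these elements are common: CCACG was found for 82.1% of the 28 genes and for 35.5% of all genes, CCAAT for 82.1% and 41.1%. These sites are shown because 11 of the 28 genes (39.3%) hold one of them, and the capitals mark the fixed letters of each element:
Hspa5 ERSE: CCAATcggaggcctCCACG
Hsp90b1 ERSE, distal: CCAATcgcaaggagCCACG
Hsp90b1 ERSE, proximal: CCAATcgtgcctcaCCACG
Calr ERSE: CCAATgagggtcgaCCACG
Canx ERSE: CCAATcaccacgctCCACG
Pdia6 ERSE: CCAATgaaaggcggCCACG
Dnajc3 ERSE: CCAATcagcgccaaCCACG
Creld2 ERSE: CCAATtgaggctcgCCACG
Syvn1 ERSE: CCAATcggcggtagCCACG
Derl3 ERSE: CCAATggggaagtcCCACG
Herpud1 ERSE-II: ATTGGgCCACG
Dnajb11 ERSE-II: ATTGGcCCACG

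Between the fixed letters the spacer differed from site to site. All sites but that of Dnajb11 lay before the annotated start. The ERSE of Hspa5 lay 65 to 47 bases before it, at chr2:34772025-34772043, and that of Syvn1 44 to 26 bases before it. The Hspa5 window is shown in full, with the ERSE in capitals, as the promoter of the central chaperone (GRCm38.p6, chr2:34771840-34772139, plus strand):
Hspa5: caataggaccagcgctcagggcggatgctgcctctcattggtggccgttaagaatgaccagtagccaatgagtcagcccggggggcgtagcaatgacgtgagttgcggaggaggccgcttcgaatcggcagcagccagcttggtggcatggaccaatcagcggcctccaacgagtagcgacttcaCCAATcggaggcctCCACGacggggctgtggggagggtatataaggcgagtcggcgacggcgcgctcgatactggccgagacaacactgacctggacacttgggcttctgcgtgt

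The window of Sec24d, the gene with the largest change at 24 h, held neither element. It held TGACGTGG, known as a binding element of XBP1 and ATF6, in capitals here (GRCm38.p6, chr3:123267246-123267545, plus strand, inside the annotated extent of the gene). On the other strand this element includes CCACG, so the searches overlap there. Of all windows, 0.676% held TGACGTGG.
Sec24d: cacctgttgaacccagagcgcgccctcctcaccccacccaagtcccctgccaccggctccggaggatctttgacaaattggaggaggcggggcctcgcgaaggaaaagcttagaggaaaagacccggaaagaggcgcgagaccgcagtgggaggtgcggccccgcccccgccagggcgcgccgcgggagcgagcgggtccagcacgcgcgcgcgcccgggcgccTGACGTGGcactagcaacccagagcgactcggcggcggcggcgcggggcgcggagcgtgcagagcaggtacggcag

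At 24 h against DMSO, 7 of the 11 genes with an ERSE or ERSE-II were higher with dFz7-21 and 0 lower (median log2 fold change 0.17), beside 18.2% higher and 17.7% lower of all genes tested. Among the 17 with a window and neither element, 6 were higher and 0 lower (median 0.15), and among the 6 without a window 3 were higher and 1 lower. Of 16 tested genes outside the set with either element in their window, 3 were higher and 1 lower, a share of higher genes close to that of all genes. Their median log2 fold change was nevertheless 0.2, against -0.01 over all genes tested. The window of Xbp1 held none of the elements searched, and Xbp1 was among the genes with the largest changes.

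Per unit of transcript length, the level of the 34 genes spanned a wide range in the DMSO 24h libraries, from P4hb at 573 ± 15.9 (SD, n = 4) to Derl3 at 0.668 ± 0.277 in the authors' RPKM (reads scaled for transcript length and library depth). P4hb was followed by Calr at 470.2 ± 14.8, Hspa5 at 291 ± 14.5, Pdia3 at 272 ± 13.1 and Hsp90b1 at 248 ± 14.1. The neighbours Hspa5 and Pdia3, and Pdia3 and Hsp90b1, lay within about their spread of each other, whereas P4hb and Calr did not. The sensors were low: Eif2ak3 stood at 11.9 ± 0.744, Atf6 at 9.99 ± 0.459, Ern2 at 8.10 ± 0.916 and Ern1 at 7.65 ± 0.586 RPKM. Among the genes tested, P4hb lay at the 99.5th and Derl3 at the 18.2nd percentile.

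Hspa5 encodes BiP, the ER Hsp70. In CPM scaled by TMM (trimmed mean of M-values), it stood at 816, 756, 726 and 769.9 in the DMSO 24h libraries, at 876, 925, 883 and 889 with dFz7-21, and at 782, 781, 754 and 870.4 with Fz7-21S. The dFz7-21 libraries lay above all 8 others, the closest being Fz7-21S replicate 4. Hspa5 rose by 0.22 ± 0.05 against DMSO (edgeR adjusted p = 0.000565) and by 0.16 ± 0.05 against Fz7-21S (edgeR adjusted p = 0.00755). At 6 h it did not pass, with 929 to 977 CPM in DMSO and 964 to 1012 in dFz7-21. The extent of its gene overlaps that of Rabepk, and no source used here says whether counting used strand. Exons were not compared, so whether reads of the pair were kept apart is not known. The extents of Syvn1, Pdia3, Pdia6, Derl2, Spcs2 and Atf6 also overlap protein-coding genes. Those of Dnajb11, Dnajc3, Pdia4, Edem1, Os9, Ssr1 and Eif2ak3 overlap noncoding genes or a pseudogene.

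Hyou1, the large Hsp70 relative that exchanges nucleotide on BiP, stood at 176, 183, 168 and 189.8 CPM in DMSO 24h, at 196, 193, 196 and 190.3 in dFz7-21 24h and at 175, 166, 179 and 166 in Fz7-21S 24h. The gap to DMSO was narrow, and the rise of 0.11 ± 0.04 (edgeR adjusted p = 0.0433) was lost in 9 of 32 alternative settings. Against Fz7-21S it rose by 0.18 ± 0.04 (edgeR adjusted p = 0.00248). At 6 h the 4 dFz7-21 libraries lay below DMSO instead (198, 208, 199 and 200.3 against 218, 226, 211 and 216 CPM), a log2 difference of -0.11 ± 0.04 that did not pass (edgeR adjusted p = 0.0979).

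Hsp90b1 encodes GRP94, the ER Hsp90. It stood at 722, 650.3, 666 and 722 CPM in DMSO 24h and at 727, 771, 739 and 753 in dFz7-21 24h. All dFz7-21 libraries were higher, 2 of the DMSO libraries only just below them, and the log2 difference of 0.12 ± 0.05 did not pass (edgeR adjusted p = 0.0941). In Fz7-21S 24h it stood at 703, 711, 653 and 770.3 CPM, overlapping both.

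Sdf2l1, Manf and Creld2 encode small soluble ER proteins that are among the classic targets of the response. None passed in a comparison of treatments. Sdf2l1 stood at 66.0, 69.9, 66.0 and 62.1 CPM in DMSO 24h, at 76.9, 69.0, 70.6 and 75.5 in dFz7-21 24h and at 62.1, 66.5, 70.8 and 97.6 in Fz7-21S 24h. Manf stood at 134, 131, 127 and 131 in DMSO 24h, at 149, 151, 156 and 158 in dFz7-21 24h and at 130.2, 136, 136 and 218 in Fz7-21S 24h. Creld2 stood at 59.7, 54.8, 53.1 and 53.2, at 57.3, 60.7, 58.5 and 58.9 and at 53.1, 53.7, 54.7 and 78.8 in the same order. In all 3 genes the Fz7-21S libraries 1 to 3 resembled DMSO and replicate 4 was the highest of the 12 libraries at 24 h. Without that library, the log2 difference of dFz7-21 from Fz7-21S changed from -0.01 ± 0.10 to 0.22 ± 0.05 for Manf (edgeR adjusted p = 0.000252) and from -0.03 ± 0.09 to 0.15 ± 0.05 for Creld2 (edgeR adjusted p = 0.0207). Both then passed as higher with dFz7-21. Against DMSO, the log2 differences with all libraries were 0.23 ± 0.10 for Manf, 0.15 ± 0.10 for Sdf2l1 and 0.09 ± 0.09 for Creld2. Of these, Manf and Sdf2l1 passed against DMSO without Fz7-21S 24h replicate 4, a library outside that contrast whose removal changes the shared estimate of spread.

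Of the J-domain cochaperones of BiP, 2 of 4 were higher with dFz7-21 in both comparisons at 24 h. Among all genes tested, 18.2% were higher against DMSO and 16.5% against Fz7-21S. Dnajb11 stood at 166, 149, 146 and 159 CPM in DMSO and at 189.7, 186, 178 and 188 in dFz7-21, a rise of 0.26 ± 0.05 (edgeR adjusted p = 0.00059). Dnajc3, which encodes p58IPK, an inhibitor of PERK as well as a cochaperone, rose by 0.17 ± 0.05, from 132, 132, 132 and 144 to 156, 157, 150.0 and 147 CPM. Its groups did not overlap, DMSO replicate 4 being the closest. Dnajb9, encoding ERdj4, a repressor of IRE1 and a sensitive XBP1 target, was low and flat, at 8.97, 9.19, 9.18 and 8.98 CPM in DMSO 24h, at 9.45, 10.7, 8.06 and 9.61 in dFz7-21 24h and at 10.7, 9.24, 7.45 and 9.67 in Fz7-21S 24h. The 95% interval of its log2 difference between dFz7-21 and DMSO ran from -0.17 to 0.28. Dnajc10, a disulfide reductase that works with ERAD, differed by -0.13 ± 0.05 and did not pass (edgeR adjusted p = 0.0597).

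Calr and Canx encode calreticulin and calnexin, the chaperones that bind sugars on new glycoproteins. Calr stood at 957, 915, 889 and 925 CPM in DMSO 24h, at 1028, 1051, 1059.9 and 1032 in dFz7-21 24h, and at 885, 906, 940.0 and 1113 in Fz7-21S 24h. It rose by 0.18 ± 0.05 against DMSO (edgeR adjusted p = 0.0101), whereas the Fz7-21S group overlapped dFz7-21 through replicate 4 alone and the difference of 0.12 ± 0.05 did not pass (edgeR adjusted p = 0.0876). Canx rose by 0.23 ± 0.06 against DMSO and by 0.30 ± 0.06 against Fz7-21S, from 548 to 582 CPM in DMSO to 642 to 685 CPM. Without Fz7-21S 24h replicate 4 the difference of Canx from Fz7-21S was 0.25 ± 0.04 (edgeR adjusted p = 1.80e-05).

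Of the disulfide isomerases, P4hb (PDI itself, also a subunit of prolyl 4-hydroxylase) rose and the other 3 did not pass. P4hb stood at 1495, 1415, 1469.8 and 1488 CPM in DMSO 24h, at 1998, 2130.4, 2018 and 2051 in dFz7-21 24h and at 1469, 1533, 1608 and 1789.6 in Fz7-21S 24h. Its lowest dFz7-21 library was well above the highest library of either control. The rise was 0.48 ± 0.05 against DMSO (edgeR adjusted p = 4.44e-08) and 0.36 ± 0.05 against Fz7-21S (edgeR adjusted p = 4.8e-06). At 6 h P4hb was 1242 to 1325 CPM in DMSO and 1265 to 1323 in dFz7-21, a log2 difference whose 95% interval ran from -0.10 to 0.10. Pdia4, by contrast, stood at 148, 138, 153 and 157 CPM in DMSO 24h, at 155, 152, 149 and 150.2 in dFz7-21 24h and at 151, 149, 153 and 156 in Fz7-21S 24h. Those 3 groups overlapped throughout, with a 95% interval for dFz7-21 against DMSO from -0.07 to 0.12. Pdia3 (ERp57) and Pdia6 differed from DMSO by 0.05 ± 0.05 and 0.04 ± 0.07.

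The ERAD genes had 5 of 8 members higher against each control at 24 h and 0 lower, beside 18.2% higher against DMSO and 16.5% higher against Fz7-21S of all genes tested. Edem1, which sends misfolded glycoproteins to degradation, stood at 119, 109.9, 123 and 122 CPM in DMSO 24h, at 154, 151, 152 and 146 in dFz7-21 24h and at 125, 126, 118 and 116 in Fz7-21S 24h. The dFz7-21 libraries lay clear of both controls, which overlapped each other. Edem1 rose by 0.35 ± 0.05 against DMSO (edgeR adjusted p = 4.91e-06) and by 0.32 ± 0.05 against Fz7-21S (edgeR adjusted p = 2.26e-05). Syvn1, the ubiquitin ligase HRD1, rose by 0.26 ± 0.05 and 0.25 ± 0.05 in the same order, Derl1, of the retrotranslocation channel, by 0.26 ± 0.05 and 0.15 ± 0.05, and Os9, a lectin of the HRD1 complex, by 0.23 ± 0.04 and 0.28 ± 0.04. Sel1l, the HRD1 adaptor, rose by 0.31 ± 0.10 against Fz7-21S only (edgeR adjusted p = 0.0262), a group in which replicate 4 stood at 74.0 CPM and the other 3 at 117 to 127. Without that library its difference was 0.18 ± 0.06 (edgeR adjusted p = 0.0132).

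Herpud1, an ERAD scaffold that ATF6, XBP1 and ATF4 all induce, stood at 132, 134, 144 and 130.3 CPM in DMSO 24h, at 151, 153, 146 and 154 in dFz7-21 24h and at 144, 143, 149.7 and 149.7 in Fz7-21S 24h. It rose by 0.16 ± 0.04 against DMSO (edgeR adjusted p = 0.00499), and the Fz7-21S libraries lay between and overlapped both. Derl3, the derlin most tied to secretory cells, was near the lower limit of what the counts resolve, at 1.40, 0.428, 1.27 and 1.36 CPM in DMSO 24h, at 0.675, 1.22, 0.850 and 0.647 in dFz7-21 24h and at 1.41, 1.28, 1.19 and 1.13 in Fz7-21S 24h. Its 95% interval for dFz7-21 against DMSO ran from -1.04 to 0.23. Derl2, another derlin, differed by 0.18 ± 0.08 and did not pass, although its groups did not overlap.

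Among the genes of entry, processing and export, Sec24d and Sec61a1 were higher against both controls and Sec61b, Spcs2 and Ssr1 did not pass. Sec24d (chr3:123264801-123365641) encodes a cargo adaptor of the COPII coat that carries proteins out of the ER, and it is an ATF6 and XBP1 family target in other tissues. It stood at 90.3, 92.5, 87.1 and 95.2 CPM in DMSO 24h, at 142, 153, 147 and 137 in dFz7-21 24h and at 91.6, 91.3, 89.6 and 57.9 in Fz7-21S 24h. The dFz7-21 group was separate from both controls, and within Fz7-21S replicate 4 was far below the rest. The rise was 1.59-fold against DMSO (0.67 ± 0.10, edgeR adjusted p = 8.54e-06) and 0.81 ± 0.10 against Fz7-21S (edgeR adjusted p = 7.89e-07), or 0.69 ± 0.06 without replicate 4. It was the only one of the 34 genes to change by more than 1.5-fold against DMSO at 24 h. Sec61a1, the pore of the translocon, rose by 0.21 ± 0.04 against DMSO, from 369 to 390.1 CPM up to 439 to 447 CPM. Sec61b, a small subunit of the same channel, stood at 23.2, 20.2, 22.6 and 19.0 CPM in DMSO 24h, at 25.2, 27.0, 26.0 and 28.1 in dFz7-21 24h and at 21.3, 23.1, 22.7 and 42.1 in Fz7-21S 24h. With all libraries its difference from Fz7-21S was -0.04 ± 0.14, and without replicate 4 it was 0.27 ± 0.07 (edgeR adjusted p = 0.0035).

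The transcription factor Xbp1 stood at 242, 227, 229 and 236 CPM in DMSO 24h, at 303, 328, 305 and 319 in dFz7-21 24h and at 238, 252, 252 and 278 in Fz7-21S 24h. All dFz7-21 libraries were above all others, and Xbp1 rose by 0.43 ± 0.05 against DMSO (edgeR adjusted p = 1.66e-07) and by 0.30 ± 0.05 against Fz7-21S (edgeR adjusted p = 2.84e-05). Counts per gene hold the spliced and the unspliced Xbp1 mRNA together, so the active form was not measured. Atf6 stood at 77.1, 74.9, 75.3 and 82.3 CPM in DMSO 24h, at 91.9, 91.2, 94.6 and 80.6 in dFz7-21 24h and at 84.3, 80.7, 76.8 and 44.7 in Fz7-21S 24h. Its difference from DMSO, 0.21 ± 0.12, did not pass (edgeR adjusted p = 0.165), and that from Fz7-21S, 0.32 ± 0.12, did (edgeR adjusted p = 0.0355), falling to 0.17 ± 0.06 without replicate 4 (edgeR adjusted p = 0.0148).

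Of the other sensors, Eif2ak3, which encodes PERK, stood at 52.6, 51.0, 53.0 and 58.5 CPM in DMSO 24h, at 62.9, 66.7, 63.0 and 59.7 in dFz7-21 24h and at 54.7, 53.0, 53.1 and 40.0 in Fz7-21S 24h. It rose by 0.23 ± 0.07 against DMSO (edgeR adjusted p = 0.0156, and 0.0511 without DMSO 24h replicate 2) and by 0.33 ± 0.07 against Fz7-21S (edgeR adjusted p = 0.00116). Without Fz7-21S 24h replicate 4, the lowest of its group, the latter was 0.26 ± 0.05 (edgeR adjusted p = 0.000303). Ern1, the ubiquitous IRE1 gene, stood at 28.3, 33.6, 29.1 and 31.7 in DMSO 24h, at 34.8, 34.7, 29.0 and 26.8 in dFz7-21 24h and at 29.9, 25, 28 and 9.06 in Fz7-21S 24h. No comparison of Ern1 passed with all 24 libraries, and its interval against DMSO was wide, from -0.38 to 0.44. Ern2, the IRE1 gene of mucosal epithelium, was the single member lower with dFz7-21. It stood at 24.1, 24.2, 28 and 30.1 CPM in DMSO 24h, at 25.6, 23.3, 21.6 and 19.9 in dFz7-21 24h and at 25, 22.7, 24.4 and 25.7 in Fz7-21S 24h. The groups overlapped, and the fall of 0.24 ± 0.08 on the log2 scale (edgeR adjusted p = 0.0321) was lost in 14 of 32 alternative settings, the removal of the 3 libraries with mesenchymal transcripts among them.

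**Figure D2:**
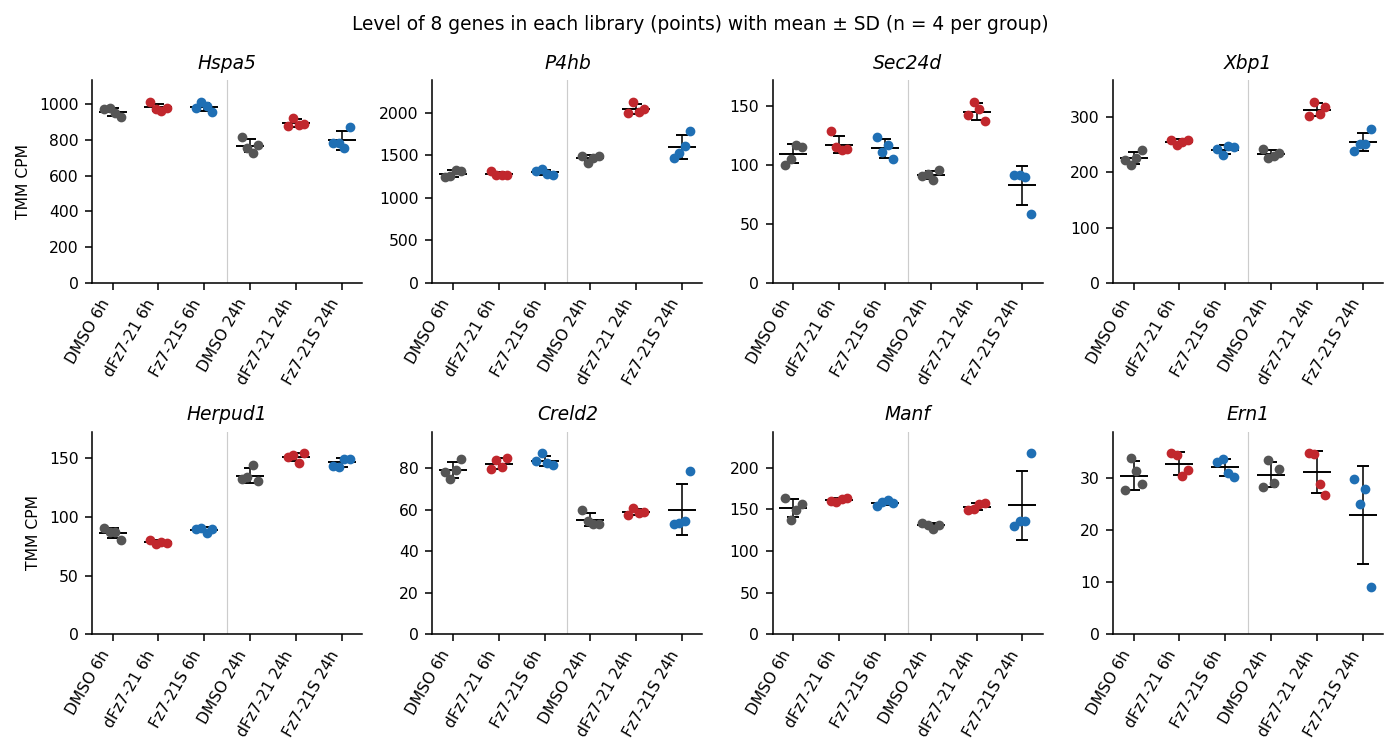
Level of 8 of the genes (TMM CPM, y axis from 0) in each of the 24 libraries (points) by group (x axis), with the mean and SD of the 4 libraries as a bar. The dFz7-21 24h points of P4hb, Sec24d and Xbp1 lie above all other 24 h points, and Fz7-21S 24h replicate 4 is apart in Creld2 (78.8 CPM), Manf (218 CPM), Ern1 (9.06 CPM) and Sec24d (57.9 CPM).

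At 6 h few of these genes differed. Against DMSO 1 was higher and 2 lower with dFz7-21, beside 6.05% and 5.0% of all genes tested (11% in either direction), and the median log2 fold change was 0.00. Xbp1 stood at 222, 214, 226 and 239.8 CPM in DMSO 6h, at 259.6, 249.9, 255 and 258 in dFz7-21 6h and at 242, 231, 247 and 246 in Fz7-21S 6h. It rose by 0.18 ± 0.05 against DMSO (edgeR adjusted p = 0.0128), its dFz7-21 libraries lying above all others at 6 h. That call was lost in 6 of 32 alternative settings, among them without dFz7-21 6h replicate 1 or 4 and without DMSO 6h replicate 2. Pdia4 stood at 139.6, 140.3, 137 and 135 CPM in DMSO 6h, at 121, 119.5, 123 and 126 in dFz7-21 6h and at 130.1, 143, 128 and 129 in Fz7-21S 6h, and fell by 0.17 ± 0.04 on the log2 scale (edgeR adjusted p = 0.00926). Herpud1 stood at 90.4, 87.5, 86.9 and 80.5 CPM in DMSO 6h, at 80.4, 77.1, 78.6 and 77.8 in dFz7-21 6h and at 89.9, 90.3, 86.4 and 89.9 in Fz7-21S 6h. The gap to DMSO replicate 4 was very small, and Herpud1 fell by 0.14 ± 0.04 on the log2 scale (edgeR adjusted p = 0.0412). None of the 3 passed without the 3 libraries with mesenchymal transcripts, of which 2 are DMSO 6h libraries (edgeR adjusted p from 0.177 to 0.491). The part of those transcripts in these results was not tested.

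Against Fz7-21S at 6 h, Herpud1 alone passed among the 34, lower by a log2 difference of -0.18 ± 0.04 (edgeR adjusted p = 0.00929), beside 3.21% higher and 3.83% lower of all genes tested (7.04% in either direction). For 4 genes (Herpud1, Pdia4, Hyou1 and Dnajb11) the dFz7-21 libraries lay below all Fz7-21S libraries and for 1 (Xbp1) above, beside 10.5% and 11.1% of all genes tested. Hyou1 stood at 215, 224, 209 and 213 CPM in Fz7-21S 6h. The differences of Pdia4 (-0.12 ± 0.04) and Hyou1 (-0.10 ± 0.04) did not pass. Both passed when only the 8 libraries of these groups were fitted, and Pdia4 passed without Fz7-21S 24h replicate 4. Against DMSO at 6 h, Hyou1 passed in DESeq2, in the fit of only the groups compared and without that library. Sdf2l1 stood at 58.8, 51.9, 59.8 and 63.3 CPM in DMSO 6h, at 45.3, 52.3, 48.2 and 54.4 in dFz7-21 6h and at 53.6, 59.0, 58.2 and 60.1 in Fz7-21S 6h. Its differences of -0.22 ± 0.10 from DMSO and -0.21 ± 0.10 from Fz7-21S did not pass with all libraries, and both did without Fz7-21S 24h replicate 4.

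The log2 difference of dFz7-21 from DMSO moved up from 6 h to 24 h for 14 of the 34 genes and down for 0. This was a signed test of the change itself, beside 7.37% up and 5.78% down of all genes tested (13.2% in either direction). A gene that was lower at 6 h and nearer to DMSO at 24 h also counts as up. The largest changes were those of Sec24d (0.56 ± 0.14, edgeR adjusted p = 0.00673) and P4hb (0.48 ± 0.07, edgeR adjusted p = 2.99e-05). Canx, Herpud1, Dnajb11, Derl1 and Xbp1 followed with 0.25 to 0.30. Herpud1 went from lower at 6 h to higher at 24 h, and so the sign of its difference turned. Its 6 h call against DMSO was lost in 13 of 32 alternative settings, among them the replicate block, no filter on low counts and the removal of any single dFz7-21 6h library, while its 6 h call against Fz7-21S was lost in 0. Pdia4 was in the count because of its lower level at 6 h, since it hardly differed at 24 h. Without the 3 libraries with mesenchymal transcripts the count was 6 (Dnajb11, P4hb, Herpud1, Os9, Sec24d and Xbp1), and without Fz7-21S 24h replicate 4 it was 19. For Fz7-21S the same test called 0 of the 34, beside 0.00% of all genes tested. An unadjusted p below 0.05 was held by 0 of the 34, beside 1360 of all 15429 genes tested. DESeq2 also called 0 of the 34.

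**Figure D3:**
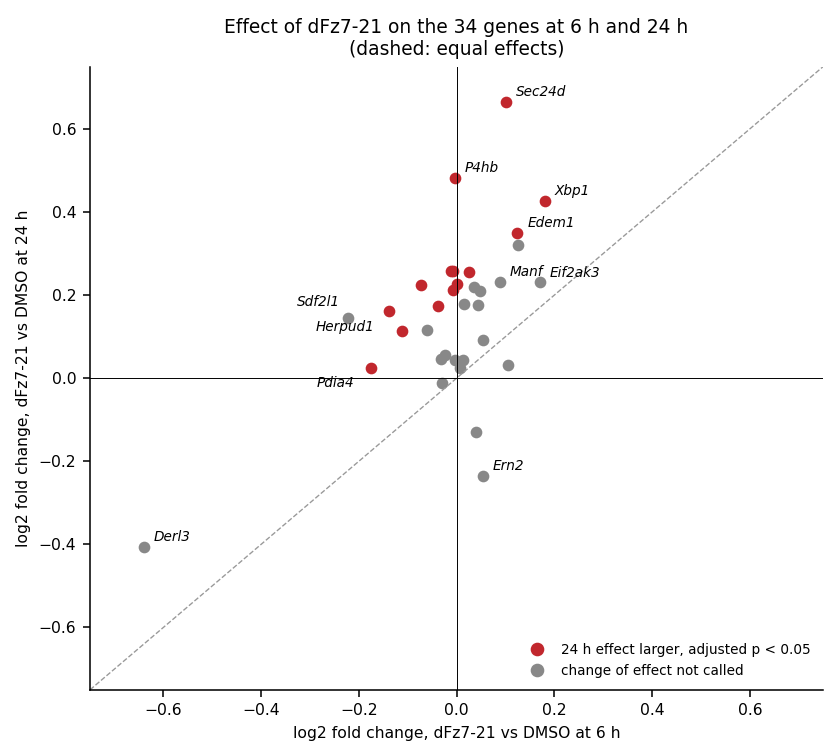
Log2 fold change of dFz7-21 against DMSO at 6 h (x axis) and 24 h (y axis) for the 34 genes (points). The 2 axes rest on separate libraries, and the dashed line marks equal effects. The 14 genes in red passed the signed test of the change and lie above the line, with Sec24d and P4hb farthest from it. Red marks a higher log2 fold change at 24 h than at 6 h, which is not always a larger effect.

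Time alone moved the 34 genes in both directions. From 6 h to 24 h in DMSO 7 rose and 9 fell, beside 27.3% and 24.9% of all genes tested (52.2% in either direction), so their share was close to that of all genes. By role, of the ERAD genes 5 of 8 rose and 0 fell, of the folding factors 3 of 6 fell and 0 rose, of the entry and export genes 3 of 5 fell and of the J-domain genes 2 of 4. Herpud1 rose by 0.65 ± 0.04 (edgeR adjusted p = 8.99e-12), from 80.5 to 90.4 CPM up to 130.3 to 144 CPM. Os9 stood at 106, 113, 113 and 121 CPM in DMSO 6h and at 165, 166, 165 and 168 in DMSO 24h, and rose by 0.55 ± 0.04. Both changes were several times the spread within a group. Hspa5 fell by 0.32 ± 0.05 on the log2 scale, from 975, 977, 952 and 929 CPM to the 24 h values above, and Creld2 fell by 0.52 ± 0.09 on the log2 scale, from 78.0, 75, 79.2 and 84.5 CPM. Ssr1, a subunit of the translocon-associated complex, stood at 313, 299, 302 and 287 CPM in DMSO 6h and at 249, 254, 250.3 and 241 in DMSO 24h, so that it fell by 0.27 ± 0.04 on the log2 scale.

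Set beside the time course, the level of Hspa5 with dFz7-21 at 24 h lay between the DMSO levels of the 2 times. Hspa5 averaged 958 ± 22.7 CPM (SD, n = 4) in DMSO 6h, 767 ± 37.5 in DMSO 24h and 893 ± 21.8 in dFz7-21 24h. The same held for Dnajb11 (193 ± 6.75, 155 ± 9.34 and 185 ± 4.93 CPM), Hyou1, Sec61a1, Calr and Creld2, so for 6 of the 9 genes that fell with time in DMSO. Of the other 3, Sec24d (109 ± 7.95, 91.3 ± 3.42 and 145 ± 7.10 CPM) and Dnajc3 (150.1 ± 2.68, 135 ± 6.20 and 153 ± 5.03 CPM) stood with dFz7-21 above the mean of DMSO 6h. Ssr1 (300.3 ± 10.6, 249 ± 5.66 and 247 ± 7.56 CPM) stood below the mean of DMSO 24h. For Creld2 the libraries of DMSO 24h (55.2 ± 3.13 CPM) and dFz7-21 24h (58.9 ± 1.39 CPM) overlapped, and their difference did not pass. All 9 genes were picked with the same DMSO 24h libraries, which favours a place between the 2 DMSO levels. How many of the 3849 tested genes that fell with time had such a place was not counted. Of the 7 genes that rose with time in DMSO, P4hb, Herpud1, Os9, Edem1, Syvn1 and Derl1 stood higher still with dFz7-21. The remaining gene, Pdia4, hardly differed between DMSO 24h (149 ± 8.07 CPM) and dFz7-21 24h (152 ± 2.30 CPM). The rises of Edem1, Syvn1, P4hb and Pdia4 with time did not pass without the 3 libraries with mesenchymal transcripts, of which 2 are DMSO 6h libraries.

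The control peptide Fz7-21S moved none of the 34 genes past the threshold against DMSO with all 24 libraries. Without Fz7-21S 24h replicate 1, Sec61b passed at 24 h, and the genes called among all tested went from 40 to 1390. At 24 h 0 passed in edgeR, beside 0.259% of all genes tested, and DESeq2 called 0. An unadjusted p below 0.05 was held by 9 of the 34, beside 3673 of all 15429 genes tested. At 6 h 0 passed, beside 0.00648% of all genes tested, and DESeq2 called 0. An unadjusted p below 0.05 was held there by 1 of the 34 (Xbp1), beside 614 of all 15429 genes tested. The smallest p-values at 6 h were those of Xbp1, Eif2ak3, Pdia4 and Dnajb11. Eif2ak3 stood at 56.5, 59.7, 58.7 and 58.0 CPM in DMSO 6h, at 71.4, 64.0, 65.3 and 61.4 in dFz7-21 6h and at 63.4, 63.4, 62.6 and 60.2 in Fz7-21S 6h. Dnajb11 stood at 194, 184, 199 and 197 CPM in DMSO 6h and at 199.5, 205, 199.6 and 205 in Fz7-21S 6h. For both genes all Fz7-21S libraries were higher than all DMSO libraries, by 0.10 ± 0.07 and 0.07 ± 0.05 on the log2 scale. The same held for Calr, so 3 of the 34 genes were separate at 6 h and 1 (Derl1) at 24 h, all with Fz7-21S higher, beside 3.08% of all genes tested at 6 h and 2.74% higher and 2.52% lower at 24 h. The 24 h differences were led by Sec61b (0.36 ± 0.14), Manf (0.24 ± 0.10), Xbp1 (0.13 ± 0.05), Herpud1 (0.12 ± 0.04) and P4hb (0.12 ± 0.05). Lower, without passing, were Ern1 (-0.41 ± 0.20) and Sel1l (-0.26 ± 0.10). Both ends of that range lay in genes where replicate 4 was far from the rest. Without it the 34 differences spanned -0.15 to 0.19 with a median of 0.01, and 1 had an unadjusted p below 0.05.

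The 2 peptides were compared directly at 2 matched times, at doses that no source used here gives. All 34 genes were compared at each time. For the genes higher with dFz7-21 at 24 h, the log2 difference from Fz7-21S stood beside that from DMSO at 0.32 and 0.35 for Edem1, 0.25 and 0.26 for Syvn1, 0.28 and 0.23 for Os9, 0.19 and 0.21 for Sec61a1, 0.36 and 0.48 for P4hb, 0.30 and 0.43 for Xbp1 and 0.15 and 0.26 for Derl1. These paired values share the dFz7-21 libraries. For Pdia4 the 95% interval of the difference between the peptides ran from -0.10 to 0.08, for Ssr1 from -0.06 to 0.09 and for Herpud1 from -0.04 to 0.13. The widest were those of Derl3 (-1.20 to 0.08) and Ern1 (0.03 to 0.85). The difference of 0.44 for Ern1 rested on Fz7-21S 24h replicate 4. Without it the difference was 0.20 ± 0.09 (edgeR adjusted p = 0.0717), whereas without replicate 1 or replicate 3 of the same group, with replicate 4 kept, Ern1 passed.

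In Fz7-21S 24h replicate 4 the 34 genes deviated in both directions. Sec61b, Manf, Sdf2l1 and Creld2 lay more than 0.5 above the other 3 libraries of the group on the log2 scale (0.91, 0.70, 0.56 and 0.55), and Ern1, Atf6, Sel1l and Sec24d more than 0.5 below (-1.60, -0.85, -0.72 and -0.65). The transcript length implied by the authors' counts and RPKM was 0.179 to 0.802 times that of the median member for the 4 high genes and 1.286 to 2.485 times for the 4 low genes. These 4 high genes were all shorter than these 4 low genes. The 26 genes that deviated less spanned 0.535 to 3.06 times, a range that overlaps both. The part of length, RNA quality or library preparation in this was not tested.

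**Figure D4:**
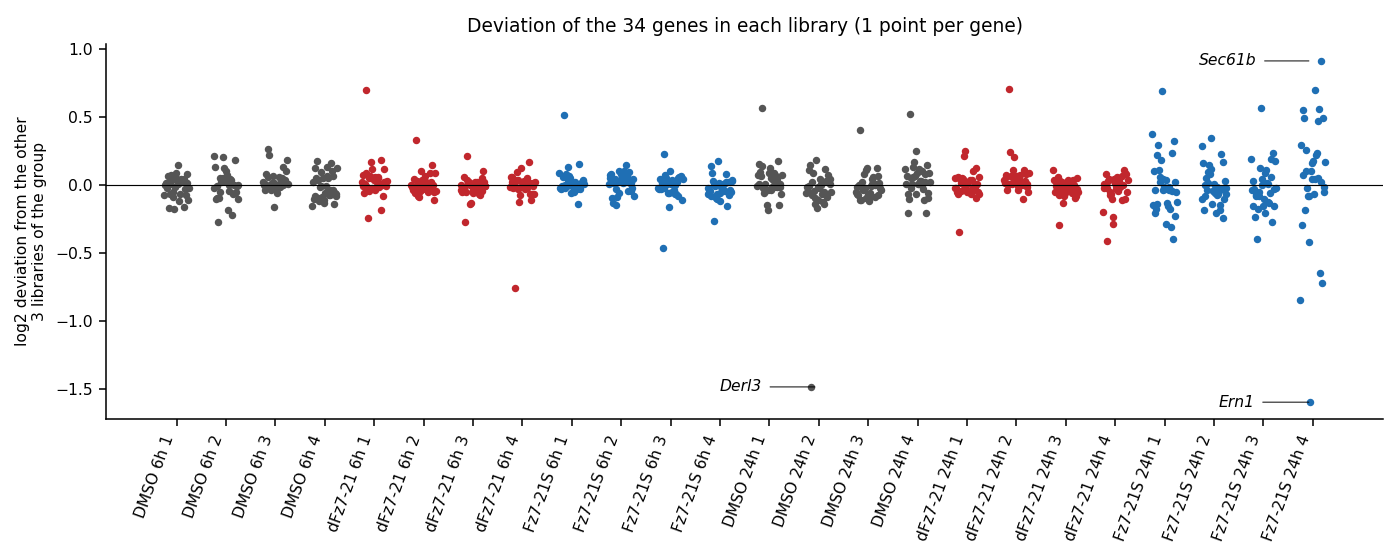
Log2 deviation (y axis) of each of the 34 genes (points) from the mean of the other 3 libraries of its group, for all 24 libraries (x axis). Fz7-21S 24h replicate 4, at the right, has the widest scatter, from -1.60 (Ern1) to 0.91 (Sec61b), and the low point of DMSO 24h replicate 2 is Derl3, a gene with few counts.

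A separate list held 82 other genes of the ER. At 24 h with dFz7-21 18 of the 82 were higher and 4 lower than with DMSO (median 0.09), beside 18.2% and 17.7% of all genes tested. Against Fz7-21S 19 were higher and 7 lower (median 0.02), beside 16.5% and 17.2%. Over the alternative settings the higher counts spanned 16 to 37 and 6 to 31, with the 6 from the fit of only the 8 libraries compared. The smallest p-values against DMSO belonged to the membrane-bound transcription factor gene Creb3l3 (0.88 ± 0.10, edgeR adjusted p = 1.19e-07), the oxidase gene Ero1a (0.51 ± 0.06), the COPII coat gene Sec13 (0.42 ± 0.05) and the isomerase gene Agr2 of secretory epithelium (0.57 ± 0.08). Against Fz7-21S they were Sec24c (0.35 ± 0.06), Sec13 (0.31 ± 0.05), Ero1a (0.35 ± 0.06) and Agr2 (0.45 ± 0.08). Sec13 and Sec24c, like Sec24d, encode subunits of the COPII coat. At 6 h 1 was higher and 2 lower than with DMSO: Arfgap3 rose by 0.18 ± 0.05, Mogs fell by 0.20 ± 0.05 and Creb3l1 fell by 0.35 ± 0.11. Fz7-21S against DMSO called 0 of the 82 at either time in edgeR, and DESeq2 called 2 at 24 h and 0 at 6 h. The unadjusted p was below 0.05 for 24 of the 82 at 24 h and 2 at 6 h. Of all 15429 genes tested it was so for 3673 at 24 h and 614 at 6 h. Without Fz7-21S 24h replicate 1, edgeR called 12 of the 82 higher and 2 lower at 24 h. Over time in DMSO, 19 rose and 22 fell, beside 27.3% and 24.9% of all genes tested, with Arfgap3, Edem2, Crebrf and Erlec1 at the smallest p-values.

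ATF4 targets represent the other arm of the response. Of 34 tested targets (35 listed), 26 were higher and 3 lower with dFz7-21 than with DMSO at 24 h, with a median log2 fold change of 0.29, beside 18.2% and 17.7% of all genes tested. Cth, of cysteine synthesis, rose by 0.89 ± 0.05, the pseudokinase gene Trib3 by 0.88 ± 0.08, the glutathione-degrading Chac1 by 0.87 ± 0.07 and Atf5 by 0.77 ± 0.08. Atf4 itself rose by 0.33 ± 0.07 (edgeR adjusted p = 0.000842) and Ddit3, encoding CHOP, by 0.57 ± 0.15 (edgeR adjusted p = 0.00339). The 3 that fell were Slc7a5, Wars and Ddit4.

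Between Fz7-21S and DMSO at 24 h, where 0 of the 34 ER genes passed, 15 of 34 ATF4 targets were higher and 0 lower (median 0.28), beside 0.259% and 0.00% of all genes tested. Cth (0.38 ± 0.05), Asns (0.36 ± 0.05), Nupr1 (0.59 ± 0.09) and Gpt2 (0.39 ± 0.06) had the smallest p-values, and Trib3 (0.47 ± 0.08) and Chac1 (0.35 ± 0.07) passed. Atf4 (0.28 ± 0.07, edgeR adjusted p = 0.125) and Ddit3 (0.46 ± 0.15, edgeR adjusted p = 0.162) did not. The count ranged from 0 to 19 over the alternatives, 0 when only the 8 libraries of these groups were fitted. Between the peptides at 24 h, 7 targets were higher and 7 lower with dFz7-21 (median 0.06), close to the 16.5% and 17.2% of all genes tested. By smallest p, Chac1, Cth and Aars were among the higher and Nupr1 among the lower. Trib3 was 0.41 ± 0.08 higher there, while Atf4 (0.05 ± 0.07) and Ddit3 (0.11 ± 0.14) did not pass. That the ER genes and the ATF4 targets differ from each other was not tested, and both peptide comparisons with DMSO share the DMSO libraries.

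At 6 h the ATF4 targets split. Chac1 rose by 0.54 ± 0.08 and Trib3 by 0.51 ± 0.09 with dFz7-21 against DMSO, Shmt2 fell by 0.33 ± 0.06 and Slc7a5 fell by 0.27 ± 0.06, and 4 targets were higher and 4 lower in all, beside 6.05% and 5.0% of all genes tested. Against Fz7-21S 2 were higher and 5 lower, beside 3.21% and 3.83%, with the same 4 genes at the smallest p-values. Fz7-21S against DMSO called 0 at 6 h, and DESeq2 called 0. An unadjusted p below 0.05 was held by 0 of the targets, beside 614 of all 15429 genes tested. With time in DMSO, 24 targets rose and 2 fell, beside 27.3% and 24.9% of all genes tested. Chac1 rose by 2.13 ± 0.08, while Atf4 and Ddit3 did not pass. The log2 difference of dFz7-21 from DMSO moved up from 6 h to 24 h for 18 targets and down for 1. The shares of all genes tested were 7.37% and 5.78%. Cth, Psat1, Shmt2 and Atf5 had the smallest p-values, and Shmt2 had been lower at 6 h.

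**Figure D5:**
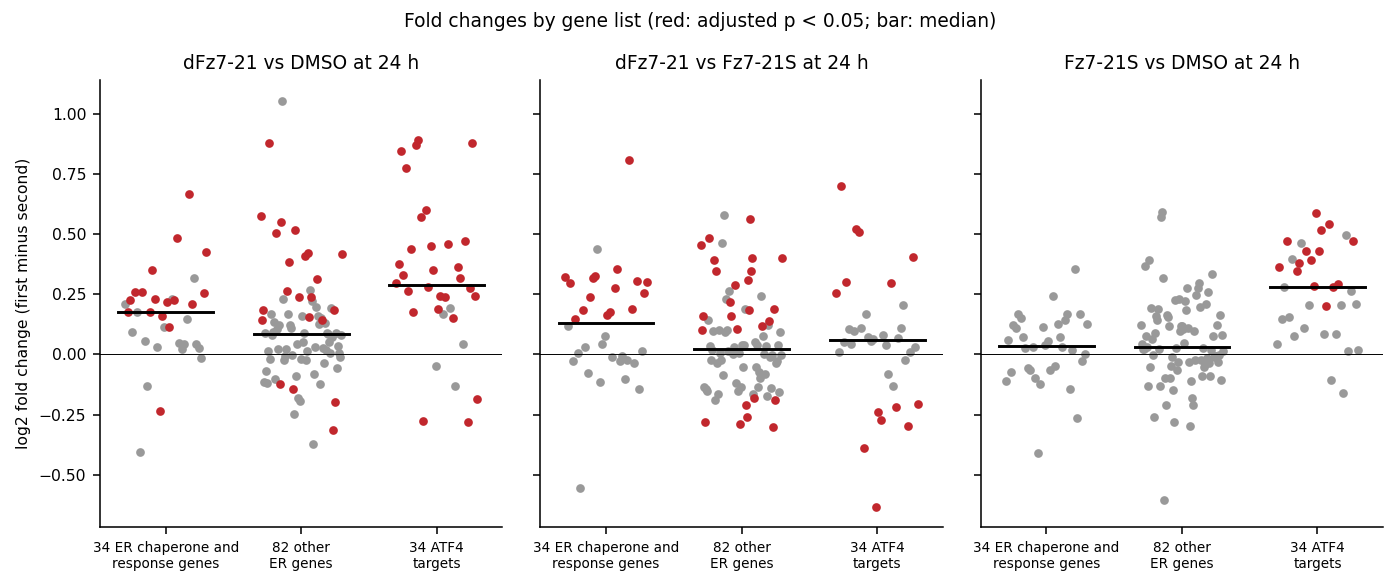
Log2 fold change (y axis) of the 34 ER chaperone and response genes, 82 other ER genes and 34 ATF4 targets (points, in groups along the x axis) in the 3 comparisons at 24 h. Red points passed at an adjusted p below 0.05 and bars are medians. In the panel of Fz7-21S against DMSO the ER genes have no red point and the ATF4 targets have 15.

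Markers of the epithelial cell types moved with the 24 h result. With dFz7-21 against DMSO, 7 of 8 Paneth markers were lower and 0 higher, and 5 of 5 stem cell markers were lower. Nupr1 was on the Paneth list and also on the list of ATF4 targets, so these lists are not fully separate. Of the goblet markers 4 of 8 were higher and 1 lower, and of the enterocyte markers 8 of 8 were higher. Higher were also 4 of 6 enteroendocrine markers, and of 4 tuft markers 1 was lower and 0 higher. Of all genes tested, 18.2% were higher and 17.7% lower. Against Fz7-21S, 8 of 8 Paneth and 5 of 5 stem cell markers were lower, beside 17.2% of all genes tested. Higher were 5 of 8 enterocyte, 4 of 8 goblet (2 lower) and 3 of 6 enteroendocrine markers, beside 16.5%. The tuft markers had 1 higher and 1 lower. The summed Paneth markers spanned 3483 to 4031 CPM with dFz7-21 and 4998 to 5863 CPM with DMSO, the goblet markers 2681 to 3203 and 2248 to 2482 CPM, and the enterocyte markers 6815 to 8008 and 3986 to 4829 CPM. With Fz7-21S at 24 h these sums spanned 5285 to 8494, 2359 to 3138 and 4605 to 6132 CPM in the same order. The goblet sums with Fz7-21S thus overlapped those with dFz7-21. None of these markers was at 0 in all 4 libraries of a 24 h group. Their part in the changes of the 34 genes was not tested. Markers of immune and plasma cells, which also use this machinery, summed to at most 9.55 CPM in the dFz7-21 24h libraries, nearly all of it Itgam, with the plasma cell genes Jchain and Mzb1 at no more than 0.0891 and 0.235 CPM in any library.

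The 24 h changes against DMSO held without the doubtful libraries for most members. Of the 16 higher genes, 14 passed in all 32 alternative settings, the exceptions being Hyou1 and Eif2ak3. Without the 3 libraries with mesenchymal transcripts, 15 of the 17 called genes remained, Hyou1 and Ern2 being lost, and without those and the 2 libraries with the fewest genes detected all 17 remained and 6 were added (Atf6, Derl2, Hsp90b1, Manf, Sdf2l1 and Sec61b). These 2 settings were chosen with results of these data known.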

How the data were processed

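Polyadenylated RNA of 24 mouse organoid libraries was counted per Entrez gene. The authors deposited read counts and RPKM values for each library; alignment with GSNAP to GRCm38 is given per the submitters' processing notes. No source used here gives the aligner version, annotation or strand setting. Counts were tested with edgeR 4.0.16 (R 4.3.3, limma 3.58.1): TMM scaling, a filter on low counts over the 6 groups, 1 quasi-likelihood fit of all 24 libraries with robust spread, and Benjamini-Hochberg adjustment over the 15429 genes passing the filter, called at adjusted p below 0.05. The intervals are 95% and the CPM means are given as mean ± SD over 4 libraries. The deposited RPKM values served only for levels between genes. Alternatives were other size factors, no filter, a replicate block, DESeq2 1.42.0, fits of only the groups compared, and fits without single libraries or the libraries that stood apart. The code was tested on simulated data. Symbols came from RefSeq (31049 of 36528 identifiers matched).

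The 34 members, the gene lists and the added alternatives were chosen with earlier results of these data known. Per-library values are given for 16 fixed members and for the 4 members with the smallest p in each comparison of 2 groups; the remaining members are given by counts and ranges. From the other lists the 4 genes with the smallest p per comparison are named, with Atf4, Ddit3, Trib3 and Chac1 throughout.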

Additional observations from a re-analysis of the deposited data

Results flagged for a closer look

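In each group of 4 libraries, the highest or lowest library was compared with the rest by the ratio of its gap to the range of the group (Dixon's test at the 95% level). Of 204 combinations of gene and group, 18 passed, and chance passes about 1 in 20. Of these, 7 lay in Fz7-21S 24h replicate 4. It was the high library for Manf (218 CPM), Creld2 (78.8 CPM), Pdia6 (432 CPM), Sec61b (42.1 CPM) and Spcs2 (173 CPM), and the low library for Sec24d (57.9 CPM) and Eif2ak3 (40.0 CPM). Sdf2l1 at 97.6 CPM and Ern1 at 9.06 CPM in the same library did not pass this ratio, since the other 3 libraries also varied.

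The other 11 were spread over 8 further libraries. High were Dnajb9 in DMSO 6h replicate 3 (10.4 CPM), Dnajc3 in DMSO 24h replicate 4 (144 CPM), Calr and Pdia4 in Fz7-21S 6h replicate 2 (1129.6 and 143 CPM), P4hb and Sec24d in dFz7-21 6h replicate 1 (1323 and 128 CPM) and Syvn1 in Fz7-21S 24h replicate 3 (108 CPM). Low were Pdia3 in dFz7-21 24h replicate 1 (722 CPM), Herpud1 and Syvn1 in Fz7-21S 6h replicate 3 (86.4 and 83.4 CPM) and Derl3 in DMSO 24h replicate 2 (0.428 CPM).

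The effect of dFz7-21 against DMSO differed between 6 h and 24 h for 14 genes by the test of that difference (edgeR interaction). The change on the log2 scale was 0.56 for Sec24d, 0.48 for P4hb, 0.30 for Herpud1, 0.30 for Canx, 0.27 for Dnajb11, 0.26 for Derl1, 0.25 for Xbp1, 0.23 for Syvn1, 0.23 for Hyou1, 0.23 for Edem1, 0.23 for Os9, 0.22 for Sec61a1, 0.21 for Dnajc3 and 0.20 for Pdia4.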

How the results depend on the processing

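Over all 34 genes, 9 contrasts and 32 alternative settings, 9502 results kept direction and side of the threshold, 143 lost the call, 137 gained it and 10 reversed. All reversals were in dFz7-21 against Fz7-21S at 24 h and involve Fz7-21S 24h replicate 4. With single Fz7-21S 24h libraries left out, the log2 difference spanned -0.0594 to 0.2173 for Manf, -0.05607 to 0.1498 for Creld2 and -0.1091 to 0.2705 for Sec61b, the upper end being that without replicate 4. Without the 2 libraries with the fewest genes detected it was 0.2172, 0.1498 and 0.2704. Without those and the 3 libraries with mesenchymal transcripts (5 in all) it was 0.2166, 0.16 and 0.2874, and 0.1781 for Sdf2l1. These removals were chosen after seeing the data, except that of single libraries.

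For dFz7-21 against DMSO at 24 h, the 1 lower member became 0 with RLE factors, without the filter and without the 3 libraries, and 2 with only the groups compared. At 6 h, the 1 higher member became 0 without the filter, without the 3 and without the 5 libraries, and 2 with only the groups compared and without the 2 libraries. The 2 lower members became 1 without the filter and with the replicate block, 4 with only the groups compared and without the 2 libraries, and 0 without the 3. Over all genes, 1704 calls became 3640 with only the groups compared, 698 without the 3 and 3280 without the 2 libraries. Against Fz7-21S at 24 h, 16 higher members became 8 and 5202 calls over all genes 2305 with only the groups compared. At 6 h, the 1 lower member became 4 with only the groups compared and 3 without the 2 or the 5 libraries, and 1086 calls over all genes became 3159, 2381 and 2863. For Fz7-21S against DMSO, calls over all genes went at 24 h from 40 to 0 with only the groups compared and 121 with DESeq2, and at 6 h from 1 to 4 and 10, and to 0 without the 3 or the 5 libraries. Over time in DMSO, 7 higher members became 4 without the filter and 3 without the 3 libraries. For the change of the dFz7-21 effect, 14 members became 6 without the 3 libraries, and 2029 calls over all genes became 3418 with only the groups compared, 3607 without the 2 and 3615 without the 5. For Fz7-21S the 0 calls over all genes became 21 with DESeq2 and 3 without the 5. The causes were not tested.

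With single libraries left out, dFz7-21 against DMSO gave 15 to 22 higher and 0 to 1 lower members at 24 h (all genes 4846 to 7257) and 0 to 2 and 1 to 4 at 6 h (1172 to 3134). Against Fz7-21S it gave 14 to 22 higher members at 24 h (4363 to 5836) and 1 to 3 lower at 6 h (638 to 2259). Fz7-21S against DMSO gave 0 to 1 higher members at 24 h (22 to 1390) and 0 at 6 h (0 to 29). Time in DMSO gave 4 to 9 higher and 8 to 14 lower (7408 to 9431), and the change of the dFz7-21 effect 10 to 19 (1771 to 3756).

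Same-numbered libraries shared little deviation (median correlation 0.01, from -0.52 to 0.32, with 5 of 60 above 0.1). For different numbers the median was -0.0, from -0.5 to 0.59, with 10 of 180 above 0.1. Of 28 comparisons, 11 matched a sample best with its own number. A weak shared deviation can be missed this way, so pairing of the samples by number was not excluded. With the replicate block, dFz7-21 against DMSO gave 15 higher and 1 lower members at 24 h, and 16 were higher against Fz7-21S. Depth limits Derl3 most, at about 1 CPM.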
